A study of Mus musculus with 2 samples.

Results

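The genes described here are 10 that take up, store, free, carry and export cholesterol: Scarb1, Lipe, Soat1, Npc1, Npc2, Lipa, Scarb2, Abca1, Plin2 and Scp2. They were chosen by gene name in the transcript tables of both libraries, and all 10 of them had reads, out of 18111 annotated genes with at least 1 read in either library. The tissue was adrenal gland of 14-day-old female B6CASTF1/J mice, the F1 hybrid of a C57BL/6 and a CAST parent, with no treatment or genetic change in the labels. Long-read RNA sequencing, which reads a cDNA from end to end where it can, gave 2 libraries, biological replicates 2 and 1 of that single group. The tissue name of replicate 2 speaks of 1 female and that of replicate 1 of 3 females, while the library descriptions of both speak of 3. Each value below is therefore from 1 library, and comparisons between the libraries test reads, not animals.

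Steroid-producing adrenal cells keep cholesterol as esters in lipid droplets and draw on it when hormones are made. In rodents most of it arrives through the receptor encoded by Scarb1, which takes cholesteryl esters out of high-density lipoprotein without swallowing the particle, while esters that enter by endocytosis are split in the lysosome and handed out by the Npc2 and Npc1 proteins. Free cholesterol is esterified by the enzyme of Soat1, stored in droplets coated by Plin2 protein, released again by hormone-sensitive lipase (Lipe), and exported by Abca1.

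Some of these genes make more than 1 protein, and the reads below are assigned to forms by their introns. Stretches at or near the places where the forms part are shown first. All are coding-strand sequence from GENCODE M21 transcripts on mm10, minus strand, except as stated. Exon 12 of Scarb1-201 (chr5:125281105-125281233, 129 bases) holds the end of the reading frame of the main receptor, SR-BI, with its stop codon in capitals. The alternative transcript Scarb1-202, the SR-BII form, leaves this exon out, so that the reading frame ends in the last exon and the cytoplasmic tail of the protein differs. In the 2 junctions, the last 20 bases of exon 11 are in lower case and the first 20 bases of the exon that follows are in capitals.
Scarb1-201 exon 12: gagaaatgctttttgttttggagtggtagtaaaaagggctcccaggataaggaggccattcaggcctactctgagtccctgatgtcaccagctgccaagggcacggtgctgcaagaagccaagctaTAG
Scarb1-201 junction: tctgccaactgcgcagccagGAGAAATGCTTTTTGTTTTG
Scarb1-202 junction: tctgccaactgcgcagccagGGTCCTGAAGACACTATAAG

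Scp2 also has a long and a short product. Scp2-201 has 16 exons and 547 codons and encodes sterol carrier protein x, a peroxisomal thiolase joined to the sterol carrier domain, whereas Scp2-202 has 5 exons and 143 codons and encodes sterol carrier protein 2 alone. Scp2-202 is annotated to begin 9 bases before exon 12 of Scp2-201 and shares every later splice junction with it. Its reading frame opens inside that exon (chr4:108071257-108071309), shown with the 30 preceding bases in lower case and the 23 coding bases of the short form in capitals. These bases are in both forms.
Scp2 exon 12: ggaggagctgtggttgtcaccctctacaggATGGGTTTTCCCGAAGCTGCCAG

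The first exons of Lipe differ in coding content. Lipe-201 starts translation in its first exon (chr7:25395501-25395609 is the coding part, 109 bases, start codon in capitals) and has 802 codons. Lipe-202 has a noncoding first exon and starts translation in exon 2, and Lipe-208 starts it in its first exon. Both have 759 codons, 43 fewer than Lipe-201.
Lipe-201 exon 1: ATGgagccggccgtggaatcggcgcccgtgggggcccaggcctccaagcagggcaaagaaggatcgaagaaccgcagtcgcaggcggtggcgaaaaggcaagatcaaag

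Plin2 has 2 forms that part near the end of the reading frame. The usual last exon runs on past the donor shown here, whereas another set of reads leaves the exon at that donor, 78 coding bases before the end of the frame, and joins a far 3′ exon annotated in the noncoding transcript Plin2-208. The 20 bases before the donor are in lower case, and the 20 bases that follow in each form are in capitals.
Plin2-201 at the donor: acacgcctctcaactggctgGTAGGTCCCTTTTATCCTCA
Plin2-208 junction: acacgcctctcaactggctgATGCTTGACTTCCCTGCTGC

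Replicate 2 had 991731 reads over 99893 models, 946553 of the reads in annotated genes. Replicate 1 had 1143111 reads over 122134 models, 1065570 of them in genes. Levels are given as CPM, gene reads scaled to a total of 1000000 per library, which count reads, copies made by PCR included, and carry no correction for length. Genes with at least 20 summed reads, 9211 in all, were compared by an exact conditional binomial test of their reads given the library totals, with Benjamini-Hochberg adjustment and calls at an adjusted p of 0.05. Besides gene reads, 4 other scalings were tried: gene reads without liver and muscle markers, TMM and DESeq2 size factors, which set the bulk of genes equal, and reads of the added ERCC spike-in RNA, 15903 in replicate 2 and 26894 in replicate 1. Adrenal cortex markers, led by Cyp11a1, made up 2.57% of replicate 2 gene reads and 5.88% of those in replicate 1, with 0 of 12 markers called higher and 11 of 12 called lower in replicate 2. Chromaffin cell markers took 0.506% and 1.30%, with 7 of 8 lower. Hepatocyte markers made up 5.63% in replicate 2 and 0.0547% in replicate 1 (13 of 13 tested higher), skeletal muscle markers 0.268% and 0.00807% (7 of 7 higher) and erythroid markers 0.362% and 1.13% (5 of 5 lower). Adipocyte markers took 0.879% and 0.762% (3 of 7 tested higher, 0 lower) and endothelial markers 0.0675% and 0.0868% (1 of 8 lower). Macrophage markers took 0.0230% and 0.0135% (1 of 5 tested higher, 0 lower), with Marco, of the 10 listed, at 0 reads in both. Both libraries carry the markers of the labelled tissue, and replicate 2 stands apart in liver and muscle transcripts. Values that touch a result are repeated beside it.

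The 10 genes together made up 0.300% of gene reads in replicate 2 (2840 reads, exact 95% interval 0.289 to 0.311%) and 0.314% in replicate 1 (3351 reads, 0.304 to 0.325%), a mean of 0.307 ± 0.0102% (SD, n = 2). Their near-equal sums were made up differently. Scp2 alone supplied 46.2% of these reads in replicate 2 and 15.5% in replicate 1, and Scarb1 supplied 16.2% and 46.7%. Without Scp2 the remaining genes took 0.161% in replicate 2 and 0.266% in replicate 1. Without Scarb1 the remaining genes took 0.251% and 0.168%.

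The test called 26.4% of all tested genes different, 8.58% higher and 17.9% lower in replicate 2. Of the 10 cholesterol genes 9 were tested: 1 was called higher (Scp2), 2 lower (Scarb1 and Soat1) and 6 were not called, while Abca1 had too few reads. These 3 calls in 9 are near the share of all genes called. The median log2 ratio of replicate 2 over replicate 1 was 0.14 for the 9 genes and -0.28 for all tested genes.

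**Figure D1:**
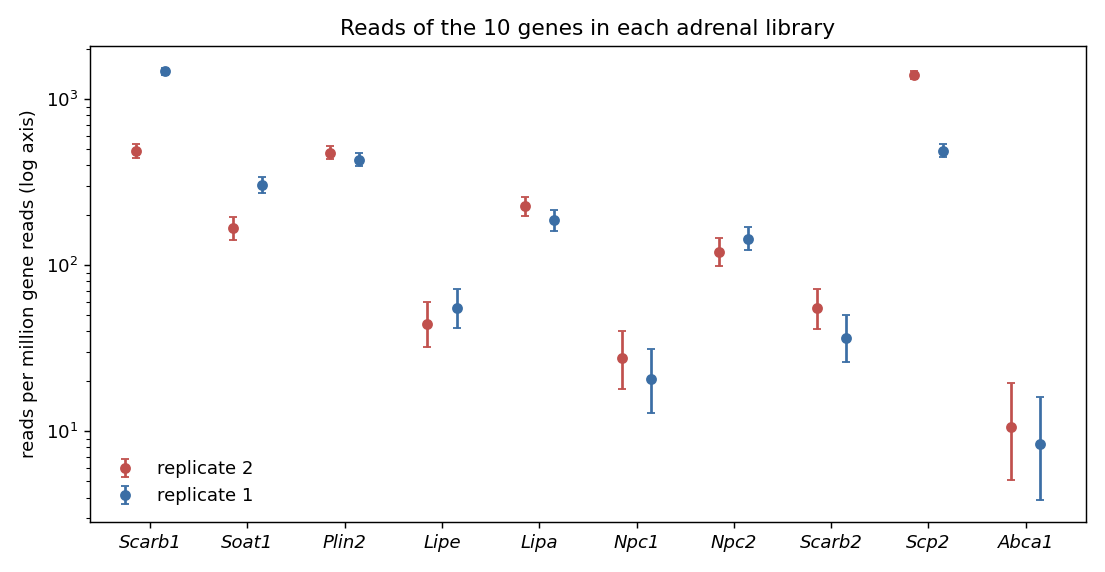
CPM (log axis) of the 10 genes, ordered by role, in replicate 2 (left of each pair, red) and replicate 1 (right, blue), with exact 95% counting intervals as bars. The intervals of Scarb1, Soat1 and Scp2 lie apart between the libraries, and those of the other genes overlap.

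Scarb1 (ENSMUSG00000037936.15, chr5:125277087-125341094, minus strand) encodes the receptor for selective uptake of cholesteryl esters from high-density lipoprotein. It had 461 reads in replicate 2 and 1566 in replicate 1, which is 487 and 1470 CPM. By read count it ranked 279 among all genes in replicate 2 and 49 in replicate 1. The CPM ratio of replicate 2 over replicate 1 was 0.331 (exact 95% interval 0.298 to 0.368), a log2 ratio of -1.59 with a counting SE of 0.076 (adjusted p = 3.09e-111, exact conditional binomial test). Scarb1 was lower in replicate 2 under each of the 5 scalings tried, with log2 ratios between -1.59 on gene reads and -1.01 on spike-in reads. The adrenal cortex markers were lower in the same library, and per 1000 reads of those 12 markers Scarb1 had 19.0 reads in replicate 2 and 25.0 in replicate 1. In bulk tissue fewer cells of a type and less RNA per cell cannot be told apart, and the part of tissue makeup in this difference was not tested.

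The shares of the 2 receptor forms were close in the libraries while the gene's level differed. Shares of chain reads are out of reads on Known models, which keep every intron of an annotated transcript, and on NIC or NNC models, which join known splice sites in an unannotated way or use an unannotated site. The outer ends of a read were not used. Of chain reads, Scarb1-201 held 360 in replicate 2 and 1200 in replicate 1, or 89.6% and 88.8%. Scarb1-202 held 23 and 73 reads, or 5.72% and 5.40%. Over reads of every class that cross the choice, exon 12 was skipped in 29 of the reads of replicate 2 and kept in 411, a skipped share of 6.59% (4.46 to 9.33%). In replicate 1 it was skipped in 84 and kept in 1403, a share of 5.65% (4.53 to 6.95%). The intervals overlap, and the mean skipped share was 6.12 ± 0.666% (SD, n = 2). Unannotated chains seen in both libraries with at least 5 summed reads were 3, with 1 read each in replicate 2 and 10, 9 and 5 reads in replicate 1, and each differs from Scarb1-201 in 1 intron.

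Most Scarb1 reads ran the length of the transcript. Of reads that follow the intron chain of Scarb1-201 from its 3′ end, 89.8% kept all 12 introns in replicate 2 (86.4 to 92.6%) and 89.0% in replicate 1 (87.2 to 90.6%). Reads on a single exon that match no splicing numbered 20 in replicate 2 and 76 in replicate 1, 4.34% and 4.85% of the gene's reads, and all of them lay in its last exon.

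**Figure D2:**
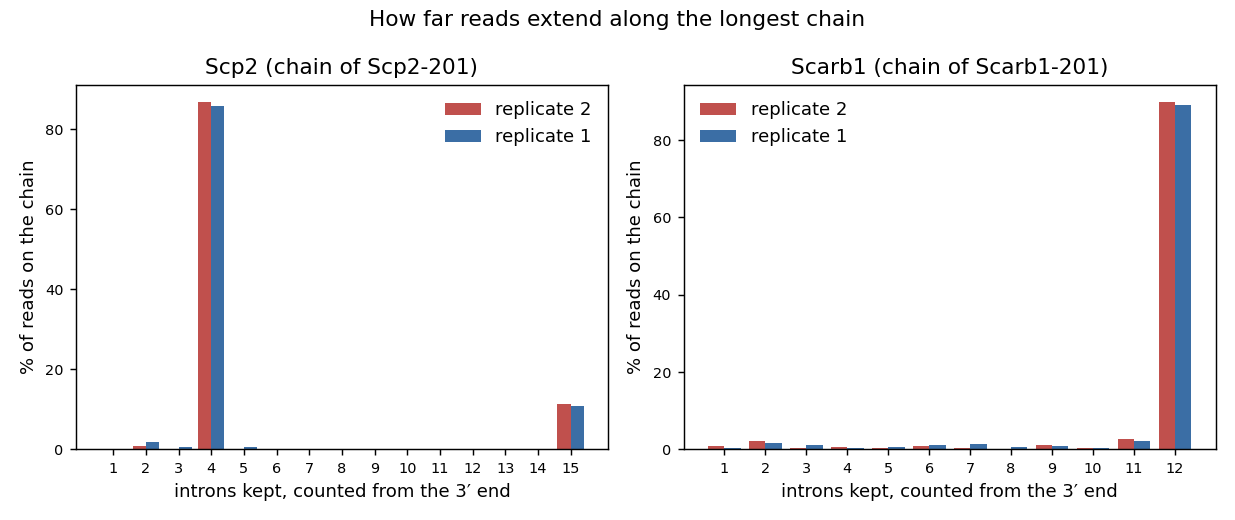
Share of the reads on the longest chain (vertical axis, percent) by the number of introns kept from the 3′ end (horizontal axis) for Scp2 (left) and Scarb1 (right), replicate 2 red and left of replicate 1 blue. Scp2 reads form a large peak at 4 introns and a small one at 15, and Scarb1 reads a single peak at 12.

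Of the genes of ester storage, Soat1 (ENSMUSG00000026600.12, chr1:156424525-156474331, minus strand) encodes acyl-CoA:cholesterol acyltransferase 1, which makes the esters. It had 158 reads in replicate 2 and 324 in replicate 1, or 167 and 304 CPM. The CPM ratio was 0.549 (0.451 to 0.666), with a log2 ratio of -0.86 ± 0.14 (counting SE; adjusted p = 3.77e-09, exact conditional binomial test). Soat1 was lower in replicate 2, but the call was lost when the libraries were scaled by spike-in reads (log2 ratio -0.28, adjusted p = 0.145) and when a coefficient of variation of 0.2 was assumed (adjusted p = 0.436, edgeR exact test). Per 1000 adrenal cortex marker reads it had 6.51 reads in replicate 2 and 5.17 in replicate 1, so this ratio ran the other way from the CPM. On that measure every cholesterol gene but Scarb1 was higher in replicate 2. Ratios of replicate 2 over replicate 1 for these genes ran from 1.26 for Soat1 to 6.50 for Scp2.

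Soat1 was read mostly as Soat1-207, with 137 and 266 reads and 90.7% of chain reads in replicate 2 against 86.4% in replicate 1. An unannotated chain, made only of annotated introns, leaves out exon 2, where the start codon lies, and had 2 and 8 reads. Over all classes that skip was 1.38% in replicate 2 (0.167 to 4.89%) and 2.70% in replicate 1 (1.17 to 5.26%). A second such chain, which changes the splice site at the edge of exon 2, had 2 and 5 reads.

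The upstream window of Soat1 is shown because its leading transcript starts beside it and it holds a motif match (RefSeq, GRCm38.p6, chr1:156474332-156474578, minus strand, the 247 bases before the first annotated exon). RefSeq windows of 300 bases, from 250 before to 50 after the start, were matched for 8 of the 10 genes in 9 windows. They were searched on both strands for AAGGTCA, the core of the site bound by the adrenal regulator SF-1, and CACCCCA, the core of the sterol response element. AAGGTCA ends in the CA with which CACCCCA begins. No window was matched for Scarb1 or Npc1, so neither gene was searched. The Scp2 window lies at the start of its long form, so the start of the short form was not searched. AAGGTCA was in 0 of the 9 windows and in 4.72% of all 32851 windows. CACCCCA was in 1 of the 9, that of Soat1, where its reverse complement is in capitals, and in 7.62% of all windows. A match is a description of letters, and bound sites were not measured.
Soat1 upstream window: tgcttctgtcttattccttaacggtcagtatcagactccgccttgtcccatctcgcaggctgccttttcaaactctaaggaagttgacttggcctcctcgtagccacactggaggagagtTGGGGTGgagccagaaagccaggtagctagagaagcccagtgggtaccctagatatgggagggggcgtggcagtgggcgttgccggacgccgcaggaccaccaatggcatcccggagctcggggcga

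Plin2 (ENSMUSG00000028494.12, chr4:86648386-86670060, minus strand) encodes perilipin 2, the protein coat of small lipid droplets. It had 450 reads in replicate 2 and 459 in replicate 1, or 475 and 431 CPM, a mean of 453 ± 31.6 CPM (SD, n = 2). Its log2 ratio was 0.14 ± 0.096 (counting SE; adjusted p = 0.297, exact conditional binomial test) on gene reads. With TMM scaling it was called higher at a log2 ratio of 0.39 (adjusted p = 0.000481), and on spike-in reads at 0.73 (adjusted p = 7.08e-13), so its call depends on the scaling.

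Plin2-201 held 397 and 404 reads, 91.7% of chain reads in replicate 2 and 92.4% in replicate 1. The unannotated 9-exon chain that leaves the usual last exon for the far 3′ exon had 17 reads in replicate 2 and 14 in replicate 1, or 3.93% and 3.20%. Counting every class, 21 reads of replicate 2 and 18 of replicate 1 used that junction. Not among them are 2 chains that reach the far exon from other donors. These are an 8-exon chain with 1 and 3 reads and a 9-exon chain with 0 and 1. Set against other reads that keep the intron before the usual last exon, the share of that junction was 4.76% (2.97 to 7.19%) and 4.02% (2.40 to 6.28%). The mean was 4.39 ± 0.526% (SD, n = 2). A short 4-exon chain with an unannotated splice site had 4 reads in each library. Both forms were read in both libraries.

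Of the 2 hydrolases, Lipa (chr19:34492318-34527474, minus strand) encodes lysosomal acid lipase, which splits esters delivered by endocytosis. It had 214 reads in replicate 2 and 198 in replicate 1, or 226 and 186 CPM, with a log2 ratio of 0.28 ± 0.14 (counting SE; adjusted p = 0.135, exact conditional binomial test). It was called higher under TMM (0.53, adjusted p = 0.00164), spike-in scaling (0.87, adjusted p = 1.69e-08) and when liver and muscle markers were left out of the totals (0.37, adjusted p = 0.0456). Lipa-201 held 186 and 166 reads, 91.6% and 90.7% of chain reads. Lipa-202, whose exon 2 is 4 bases shorter, held 9 and 10 reads. Over all classes the shorter exon was used in 4.98% of reads in replicate 2 (2.41 to 8.96%) and 5.59% in replicate 1 (2.71 to 10.03%).

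Lipe (chr7:25379527-25398710, minus strand) encodes hormone-sensitive lipase, which frees cholesterol from droplet esters. It had 42 reads in replicate 2 and 59 in replicate 1, or 44.4 and 55.4 CPM. The log2 ratio was -0.31 ± 0.29 (counting SE; adjusted p = 0.506, exact conditional binomial test) and turned to 0.27 on spike-in reads (adjusted p = 0.593), with no call in either. Adipocytes also express this gene in quantity, and their markers took 0.879% of replicate 2 gene reads and 0.762% of those in replicate 1. The part of fat tissue in the Lipe reads was not tested.

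Lipe had no dominant form. Lipe-201, with the coding first exon, had 7 reads in replicate 2 and 20 in replicate 1, or 22.6% and 40.8% of chain reads (adjusted p = 0.946, Fisher's exact test). Lipe-202, with the noncoding first exon, had 13 and 16 reads, or 41.9% and 32.7%. Lipe-208 had 2 and 4 reads. These keep the same introns as a 3′ fragment of Lipe-201 or Lipe-202, and which of them they are was not tested. The first exon of an unannotated chain with 3 and 2 reads runs past the Lipe-202 donor to another annotated donor. Reads of every class that join exon 2 to the first-exon donor of Lipe-202 or of Lipe-201 were also counted. In replicate 2, 14 used the Lipe-202 donor and 12 that of Lipe-201 (53.8% Lipe-202, 33.4 to 73.4%). In replicate 1 these were 16 and 23 (41.0%, 25.6 to 57.9%). These shares leave out the annotated donor past the Lipe-202 first exon (4 reads in replicate 2, 2 in replicate 1). The gap of 18.2 points in the Lipe-201 share was the largest among the 22 tested transcripts of these genes, and it was within counting error.

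**Figure D3:**
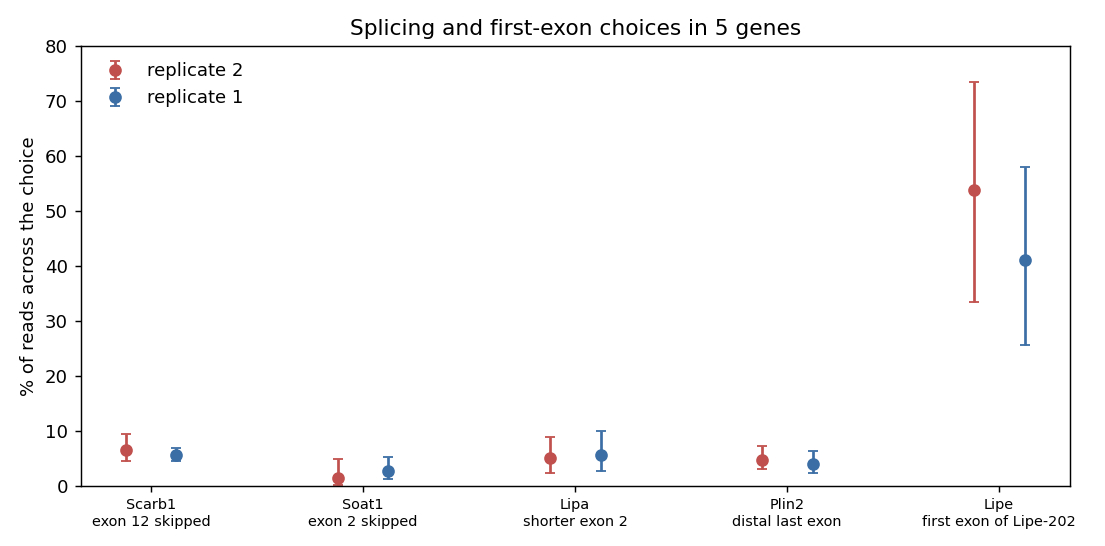
Share of reads (vertical axis, percent) that took the named choice among reads crossing it, for 5 genes, in replicate 2 (left of each pair, red) and replicate 1 (right, blue), with exact 95% counting intervals. The choices of Scarb1, Soat1, Lipa and Plin2 sit between 1.38% and 6.59%, Lipe sits at 53.8% and 41.0%, and every pair of intervals overlaps. For Lipe only the donors of Lipe-201 and Lipe-202 were counted.

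Of the lysosomal genes that follow the lipase, Npc2 (chr12:84754562-84773152, minus strand) encodes the soluble protein that binds cholesterol inside the lysosome and passes it to Npc1 protein. It had 114 reads in replicate 2 and 154 in replicate 1, or 120 and 145 CPM, with a log2 ratio of -0.26 ± 0.18 (counting SE; adjusted p = 0.296, exact conditional binomial test) that became 0.33 on spike-in reads (adjusted p = 0.205). All of its chain reads, 111 and 148, were the 4-exon transcript Npc2-201.

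Npc1 (chr18:12189692-12236400, minus strand) encodes the membrane protein that moves cholesterol out of the lysosome. It had 26 reads in replicate 2 and 22 in replicate 1, or 27.5 and 20.6 CPM, with a log2 ratio of 0.41 ± 0.41 (counting SE; adjusted p = 0.577, exact conditional binomial test). Its reads mostly kept only a 3′ part of the intron chain of the 25-exon transcript of 5224 bases. Complete chains numbered 1 in replicate 2 and 3 in replicate 1, which is 5.26% (0.133 to 26.0%) and 15% (3.21 to 37.9%) of the reads on the chain. The most frequent partial chain kept the last 8 exons and had 8 reads in each library, and the next kept the last 6 and had 4 and 3. Whether partial chains are fragments or shorter transcripts was not tested. Rmc1, annotated across Npc1 on the opposite strand, had 56 and 80 reads of its own, and reads of the 2 genes are told apart by strand and splicing alone.

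Scarb2 (chr5:92441314-92506833, minus strand) encodes LIMP-2, a lysosomal membrane protein of the same family as Scarb1 that carries glucocerebrosidase to the lysosome. It had 52 reads in replicate 2 and 39 in replicate 1, or 54.9 and 36.6 CPM. Its log2 ratio of 0.58 ± 0.30 (counting SE) did not pass (adjusted p = 0.156, exact conditional binomial test), while TMM scaling gave 0.83 (adjusted p = 0.0427) and spike-in scaling 1.17 (adjusted p = 0.000913). Scarb2-201 had 45 and 36 reads, and 95.7% and 97.3% of the reads on its chain kept all 11 introns. Reads of both family members mostly kept every intron.

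Scp2 (ENSMUSG00000028603.15, chr4:108043839-108144998, minus strand) encodes the sterol carriers shown above and is strongly expressed in liver. It had 1313 reads in replicate 2 and 521 in replicate 1, or 1387 and 489 CPM. It ranked 67 among all genes in replicate 2 and 280 in replicate 1. The CPM ratio was 2.84 (2.56 to 3.15), with a log2 ratio of 1.50 ± 0.075 (counting SE; adjusted p = 1.63e-98, exact conditional binomial test). Scp2 was higher in replicate 2 under each of the 5 scalings, at log2 ratios between 1.50 and 2.09. Hepatocyte markers were higher in the same library, 5.63% of replicate 2 gene reads and 0.0547% of those in replicate 1, and their part in the Scp2 difference was not tested. Podn, annotated on the same strand and overlapping the span of Scp2, had 103 and 49 reads, and the assignment of reads between the 2 genes could not be checked from counts.

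Although the level differed, the balance of the 2 Scp2 forms was close in the libraries. Scp2-202 had 1127 reads in replicate 2 and 439 in replicate 1, or 87.2% and 87.1% of chain reads. Scp2-201 had 148 and 55 reads, or 11.5% and 10.9%. A read of the short form keeps the same introns as a 3′ fragment of the long form with 4 introns, and which of them these reads are was not tested. The 10 intermediate lengths, with 5 to 14 introns, held 8 reads in replicate 2 and 4 in replicate 1, and lengths under 4 introns held 16 and 13. Known models took 97.4% of Scp2 reads in replicate 2 and 95.0% in replicate 1 (unadjusted p = 0.0128, adjusted p = 0.416, Fisher's exact test).

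Abca1 (chr4:53030787-53159895, minus strand) encodes the transporter that loads cholesterol onto apolipoprotein A-I. It had 10 reads in replicate 2 and 9 in replicate 1, or 10.6 and 8.45 CPM, below the minimum for the test, and the CPM ratio was 1.25 with an exact interval of 0.457 to 3.48. A complete 50-exon chain of 10262 bases was read 1 time in replicate 2 and 2 times in replicate 1. Single-exon reads made up 3 and 5 of its reads, all but 1 of them in the last exon. At this depth the interval spans both a lower and a higher level in replicate 2.

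**Figure D4:**
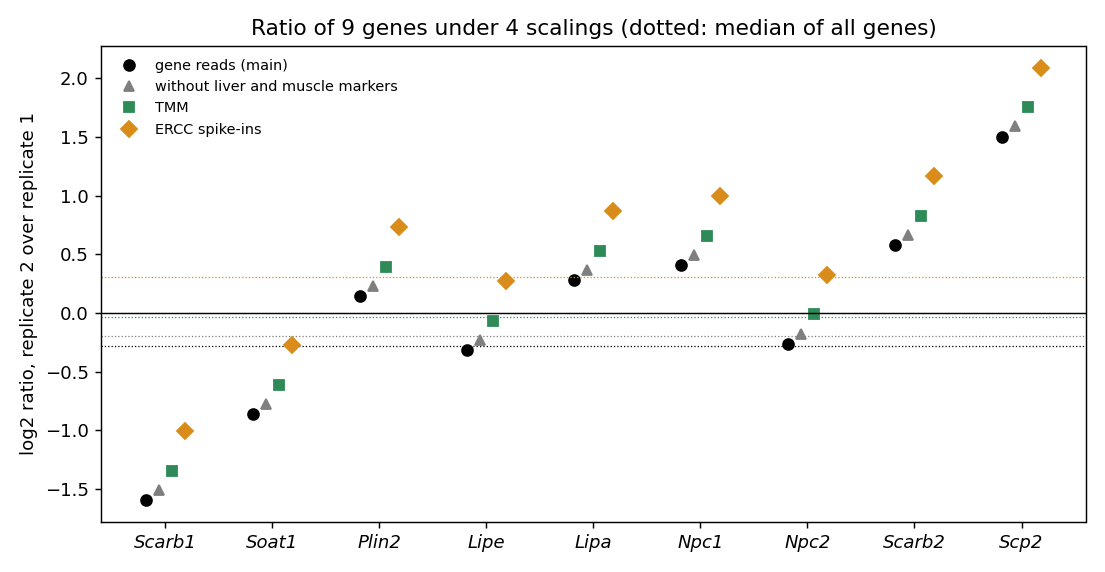
Log2 ratio of replicate 2 over replicate 1 (vertical axis) for the 9 tested genes under 4 scalings of the libraries, marked by symbol, with the median of all tested genes dotted in the same colour. Scarb1 and Soat1 stay below 0 and Scp2, Scarb2, Npc1, Lipa and Plin2 above 0 in all 4, while Lipe and Npc2 are below 0 except on spike-in reads.

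The scaling moved every ratio together. The median log2 ratio of all genes was -0.28 on gene reads, -0.03 with TMM, -0.04 with DESeq2 size factors and 0.31 on spike-in reads. The share of called genes that were higher in replicate 2 was 32.4%, 63.0%, 62.1% and 92.4% under these scalings.

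Transcript forms, unlike levels, do not depend on scaling. Of 8998 transcripts tested by Fisher's exact test for their share of their gene's chain reads, 0.945% were called different between the libraries. Among the 22 tested transcripts in 6 of the cholesterol genes 0 were called, 0 had an unadjusted p under 0.05 and the smallest adjusted p was 0.946. For the share of Known models, 0.637% of 5969 genes were called, and among the 9 cholesterol genes tested 0 were called and 1, Scp2, had an unadjusted p under 0.05. Known models made up 91.0% of the reads of the 10 genes in replicate 2 and 85.9% in replicate 1, against 78.2% and 76.1% over all genes. ISM models, which hold part of an annotated chain, made up 4.33% and 6.83%, against 10.6% and 10.7% over all genes. These pooled shares weigh each gene by its reads, of which Scp2 supplied 46.2% in replicate 2 and 15.5% in replicate 1. By gene, the Known share ran from 3.85% (Npc1) to 97.4% (Scp2) in replicate 2. In replicate 1 it ran from 13.6% (Npc1) to 96.1% (Npc2).

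A pathway list of 78 further genes in 6 roles was set beside the 10 genes. Of these, 77 had reads and 67 were tested, with 21 called higher, 9 lower and 37 not called, at a median log2 ratio of 0.14. Over all 9211 tested genes 8.58% were higher and 17.9% lower, with a median of -0.28. In lipoprotein uptake 4 of 12 tested genes were higher and 0 lower, and in efflux and its control 5 of 11 were higher and 1 lower. In cytosolic transfer and mitochondrial import 3 of 14 were higher and 5 lower.

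**Figure D5:**
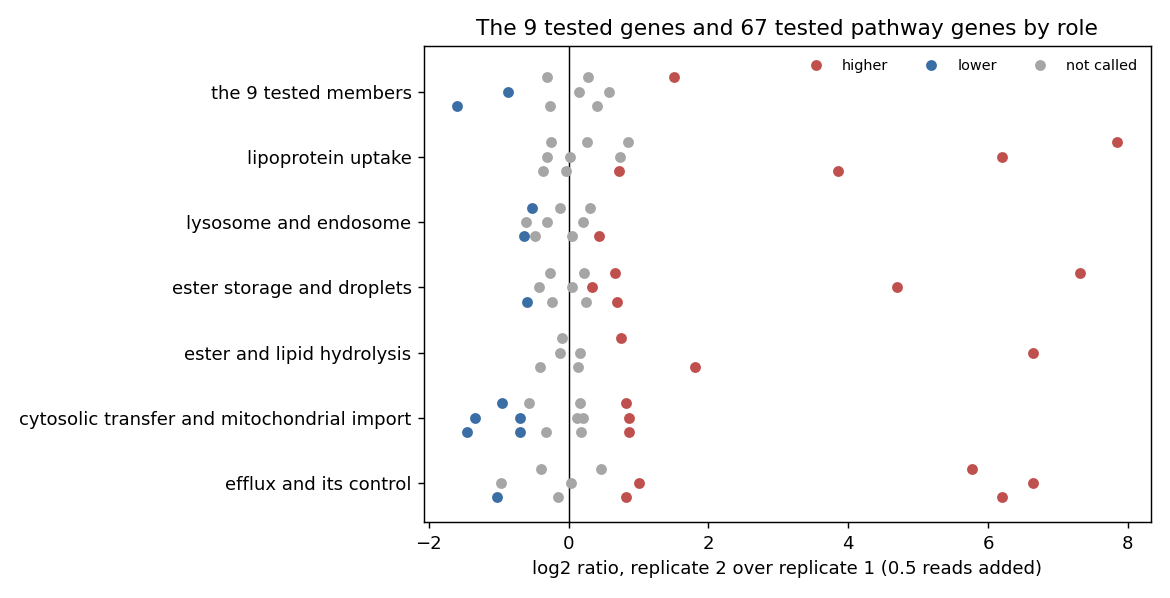
Log2 ratio of replicate 2 over replicate 1 with 0.5 reads added (horizontal axis) for the 9 tested genes (top row) and the 67 tested pathway genes by role, coloured by call, with vertical offsets for legibility only. The points past 3 belong to uptake, storage, hydrolysis and efflux, and the lowest ones to Scarb1 and to transfer and import.

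In the uptake list, Apoe, the ligand of remnant receptors, drew 24901 reads from replicate 2 and 1941 from replicate 1, with a log2 ratio of 3.85. Lpl, which frees fatty acids from lipoprotein, had 1219 and 829 reads (0.73), and Lipc, the hepatic lipase gene, had 102 reads in replicate 2 and 0 in replicate 1, at least 38.3-fold higher against a limit of 3 reads in the library. Cd36, a fatty acid receptor, was not called at 225 and 211 reads. Lipc and Apoe are made in quantity by liver. Hepatocyte markers took 5.63% of replicate 2 gene reads and 0.0547% of those in replicate 1, and their part in these differences was not tested.

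Among storage genes 5 of 12 were higher and 1 lower. Cidea, a droplet fusion protein of brown fat, had 2223 reads in replicate 2 against 1979 in replicate 1 (log2 ratio 0.34), and Dgat2, which makes triglyceride, had 1775 and 1242 (0.69). Cidec had 427 and 302 reads (0.67), and Cideb, the liver member of that family, had 70 and 0, at least 26.3-fold higher. Bscl2, which encodes the droplet assembly protein seipin, was lower with 103 and 176 reads (-0.60). Cidea and Cidec are also on the adipocyte marker list, and the part of liver or fat cells in these differences was not tested.

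In the hydrolysis list 3 of 8 genes were higher and 0 lower. The carboxylesterase genes Ces1d, with 441 reads in replicate 2 against 296 in replicate 1 (log2 ratio 0.75), and Ces3a, with 133 and 1, were among them. The Ces3a ratio was 150 with an exact interval of 26.4 to 5958. Hepatocyte markers, at 5.63% of replicate 2 gene reads and 0.0547% of those in replicate 1, were higher in the same library, and their part in these differences was not tested. Pnpla2, the first lipase of triglyceride breakdown, had 653 and 669 reads (0.14) and Mgll, which finishes it, 195 and 238 (-0.12), neither called. In the lysosome list 1 of 10 was higher and 2 lower: Lamp2, a membrane protein, had 360 and 300 reads (0.43), the protease gene Ctsd 1125 and 1819 (-0.52), and Tmem97, which lowers Npc1 protein, 56 and 98 (-0.63). Lamp1 had 642 and 629 reads and was not called.

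The transfer list held the steroidogenic step that follows the genes above. Star, which brings cholesterol into the mitochondrion, had 2232 reads in replicate 2 against 6374 in replicate 1 (log2 ratio -1.34). Fdx1, the electron donor of side-chain cleavage, had 536 and 1648 reads (-1.45), and Gramd1b, which moves cholesterol from the plasma membrane to the endoplasmic reticulum, had 80 and 175 (-0.95). Star and Fdx1 are also on the adrenal cortex list. Stard5, Osbpl1a and Osbp, which bind sterols, were higher at log2 ratios of 0.83, 0.87 and 0.87, and Dbi was not called at 1043 and 1084 reads.

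Of the genes of efflux and its control, Nr5a1, which encodes SF-1, was lower with 237 reads in replicate 2 against 541 in replicate 1 (log2 ratio -1.02). Nr5a1 is also on the adrenal cortex list, which took 2.57% of replicate 2 gene reads and 5.88% of those in replicate 1. Apoa1, the acceptor of Abca1 export, had 8290 and 93 reads (6.64) and is on the hepatocyte list. Abcg5 and Abcg8, the paired sterol transporters of liver and gut, had 97 and 72 reads in replicate 2 and 1 read each in replicate 1, at ratios of 109 (19.1 to 4357) and 81.1 (14.1 to 3245). Srebf1, a regulator of lipid synthesis, had 193 and 123 reads (0.82). The part of liver or cortex tissue in these differences was not tested. The adjusted p-values behind each call in the list were below 0.05 by the exact conditional binomial test.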

How the data were processed

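Adrenal RNA of 2 libraries was measured by long-read sequencing. Per the file headers, the authors deposited whole read counts for every transcript model, unscaled and not pooled, with models on mm10 and GENCODE M21 in the classes of the TALON program: Known, ISM, NIC (known splice sites newly joined), NNC (at least 1 unannotated site) and Genomic. Neither aligner nor read filter is named (not given in the sources used here).

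Reads were summed per gene over all classes. Every gene with 20 or more summed reads entered the exact conditional binomial test (SciPy 1.17.1). Log2 ratios had 0.5 reads added and their SE is counting error. Fisher's exact test was used for transcripts with at least 5 summed reads and for Known shares, in genes with at least 20 such reads in each library. All p-values were adjusted by Benjamini-Hochberg over every feature tested. Intervals are exact Clopper-Pearson 95% intervals. Reads carry no molecular identifiers, so intervals, limits (3 reads for a count of 0) and tests cover counting error only. A quasi-likelihood fit could not be made with 1 group of 2 libraries. TMM and the exact test with an assumed spread used edgeR 4.0.16, and size factors DESeq2 1.42.0. Tests were tried on simulated counts. CPM values use gene reads without spike-ins.

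The 10 genes, the gene lists and the tests were chosen with earlier results of these data known. In the text, each pathway role names its 3 genes of highest mean CPM and the 3 most extreme called genes with at least 50 summed reads in each direction. Scarb1-202, under 5% of its gene's reads, the splicing choices counted over all classes, and the levels per 1000 cortex marker reads, were chosen after values had been seen. Likeness of pattern was not ranked, as 2 libraries give 1 ratio per gene.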

Additional observations from a re-analysis of the deposited data

Results flagged for a closer look

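Reads of unannotated loci on the opposite strand of the cholesterol genes stood above the 3 reads that a count of 0 allows in 6 of the 10 genes. Antisense reads across Soat1 numbered 37 in replicate 2 and 82 in replicate 1, and across Scarb1 15 and 35. Across Abca1 there were 16 and 14, across Scarb2 10 and 9. Lipa had 4 in replicate 1 and Scp2 had 4 in replicate 2. Over all 10 genes such reads came to 86 in replicate 2 and 146 in replicate 1, of which 2 and 1 were spliced. These reads were not counted for the genes above, and their origin was not tested.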

How the results depend on the processing

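Against the main values of 2 cholesterol genes lower and 1 higher in replicate 2, spike-in scaling and an assumed coefficient of variation of 0.2 each left 1 lower, and the number higher was 4 with TMM, DESeq2 size factors and spike-in scaling and 2 without liver and muscle markers. Over all genes the assumed spread called 513 (446 higher, 67 lower) against 2436 (790 higher, 1646 lower). Spike-in scaling gave 2071 higher and 170 lower, and TMM and DESeq2 size factors 643 and 656 lower. In the pathway list, 21 higher and 9 lower became 40 and 3 on spike-in reads and 9 and 2 with the assumed spread. Counting ISM with Known raised the Known share calls over all genes to 136 from 38. On spike-in reads the ratios of Lipe (0.27) and Npc2 (0.33) reversed. Other than where its construction shows it, the cause of a move was not tested. Leaving out either library moves a mean CPM to the value of the other library: Scarb1 ranged from 487 to 1470 and Scp2 from 489 to 1387. The transcript and Known shares of the 10 genes gave 0 calls in every alternative run, including each library's own class, which was chosen after seeing the data. No paired analysis was possible because the series has a single group. Depth limits Abca1, Npc1 and Scarb2 most among the 10 genes, with 19, 48 and 91 summed reads, followed by Lipe with 101.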
